A study of Rattus norvegicus with 32 samples.

Results

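The comparison set 3 liver libraries titled M2, M3 and M4, all taken before transplantation, against 6 other pre-transplant liver libraries titled M8, M9, M10, M21, M22 and M23. Sample titles in this rat series run in alternating blocks of 3 pre-transplant and 3 post-transplant samples. M2 to M4 form the first pre-transplant block, here called the first run, M8 to M10 the second and M21 to M23 the fourth. Members were chosen by title alone, and they are 3 and 6 of the 12 pre-transplant samples and of the 32 samples in all. The labels give every one of these 9 samples the same description: liver of a male Lewis rat, an inbred strain, before transplantation. They name no treatment, diet, sampling time or batch for a run, so that what a run stands for cannot be told from them. A header M16, which belongs to the third run, stands on 2 columns, of which 1 must be another sample. Both columns were left out of every test and are shown beside it.

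Polyadenylated RNA from TRIzol extracts was sequenced, and values are FPKM, fragments scaled by gene length and by library size. Separate animals are not stated for the libraries, so the p-values rest on variation among samples that could be technical. Differences between the first run and the other 6 libraries are log2 fold changes ± SE on log2(FPKM + 1), a scale that understates the change of genes at low FPKM. A gene was called when its limma p-value, adjusted over all 11413 genes tested, was under 0.05. Each call was tried again under 20 alternative settings, 9 of which left out 1 library.

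The liver is built mostly of hepatocytes, which make plasma proteins, bile acids and lipids, with Kupffer cells as its resident macrophages in the sinusoids. Macrophages and other antigen-presenting cells carry MHC class II molecules, which show peptides to helper T cells and are central to graft recognition. Many metabolic genes of hepatocytes follow the circadian clock, feeding, growth hormone and insulin. In bulk tissue, fewer cells of a type and less RNA per cell cannot be told apart.

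Read totals worked out from the FPKM were 15372950 to 17875516 in the first run and 15803447 to 19311664 in the other 6 libraries. The share of reads on mitochondrially encoded genes was 5.35% to 7.43% in the first run and 5.81% to 6.88% in the others. The scaling factor that the authors' FPKM hold was 0.937 to 1.02 in the first run and 0.839 to 0.947 in the others, with a two-sided exact permutation p of 0.0476, or 0.238 adjusted over 5 library measures. Summed FPKM of 20 hepatocyte secreted proteins was 90035 to 125333 in the first run and 124583 to 154770 in the others, which are levels of liver tissue. The first-run libraries stood apart from the others and from each other, M3 the furthest. Against the 6 other-run libraries, the chi-square per degree of freedom was 48.4 to 70.9 for M2 and 51.4 to 72.4 for M4. M2 and M4 were no nearer to each other, at 69.8. For M3 it was 94.0 to 129.7, whereas pairs among those 6 lay between 22.6 and 48.0 and pairs within the first run between 69.8 and 93.5. Summed hemoglobin FPKM was 4346 in M3, 355 in M2, 653 in M4 and 329.5 to 1009 in the other 6 libraries. Results that were lost without M3 are given with their value without it.

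Between the first run and the other 6 libraries, 509 of 11413 genes were called, or 4.46%. The counts of called list members given below are to be read beside that share. Of these, 285 (2.5% of genes tested) were higher and 224 (1.96%) lower in the first run. A fitted change of at least 2-fold was reached by 76 of the higher and 57 of the lower genes. For 499 of the called genes all 3 first-run libraries lay on 1 side of all 6 others, which was so for 12.2% of all genes tested. Without M3, 143 genes were called, and leaving out each library in turn gave 143 to 639. Of the 509 genes, 117 were called in all 9 fits that left out 1 library, and 33 under all 20 alternatives. The median log2 fold change of all genes was -0.01.

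**Figure D1:**
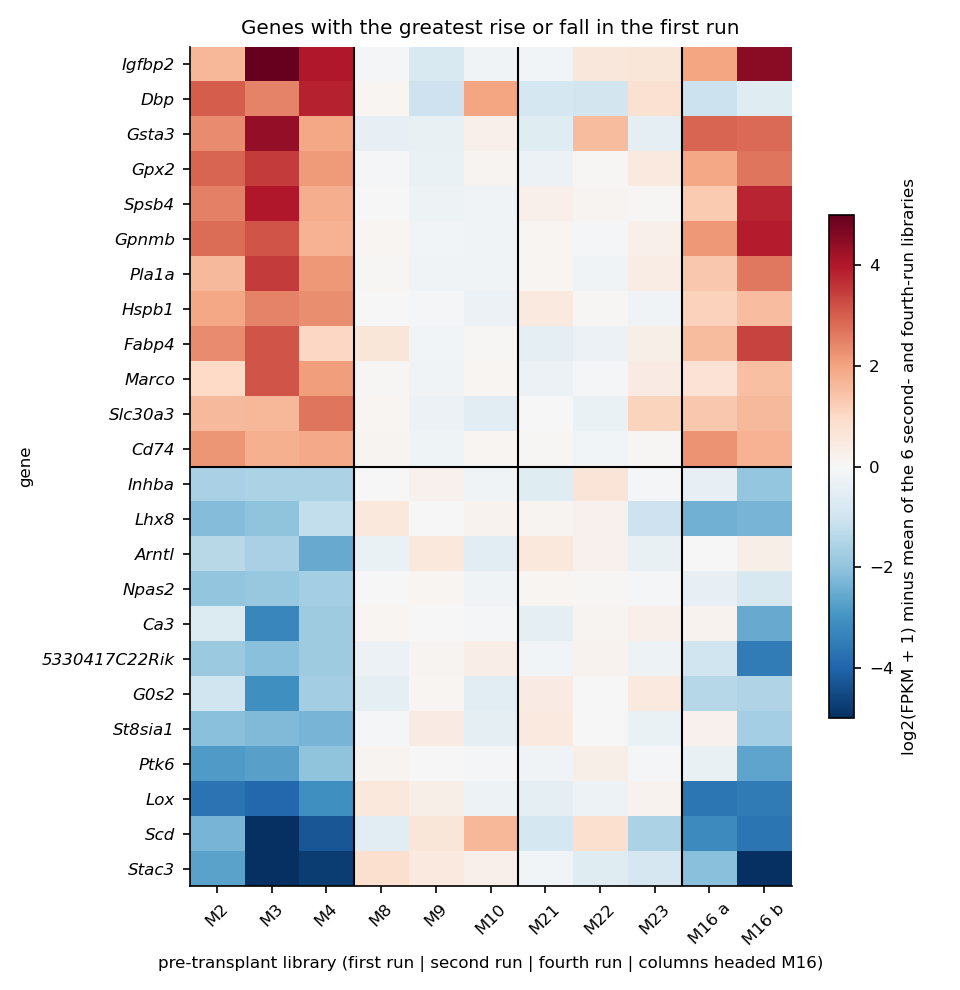
Heat map of the 12 genes with the greatest rise (top) and the 12 with the greatest fall (bottom) in the first run. Colour gives log2(FPKM + 1) minus the mean of the 6 comparison libraries, with values beyond 5 in either direction drawn in the darkest shade; columns are the 9 libraries tested, then both columns headed M16. M2, M3 and M4 share the direction for all 24 genes because only genes without overlap were chosen. The M16 columns, which had no part in that choice, share it for Lox, Gpnmb and Cd74 but not for Dbp and Arntl.

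MHC class II genes were higher in all 3 first-run libraries. Of 14 antigen presentation genes tested, 5 rose, 0 fell and 9 were not called, with a median log2 fold change of 0.39 against -0.01 over all genes. The 5 that rose were the class II chains RT1-Da, RT1-Ba, RT1-Bb and RT1-Db1 and the invariant chain Cd74, which escorts class II molecules to endosomes. Because these 4 rat chains lie in 1 cluster and moved together, the 120 bases before their start sites in RefSeq (build GRCr8) are shown, with the letters GATTGG, the core of the Y box bound by NF-Y, in capitals on either strand.
RT1-Da: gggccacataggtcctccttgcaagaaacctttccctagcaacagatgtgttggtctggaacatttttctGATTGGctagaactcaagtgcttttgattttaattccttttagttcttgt
RT1-Ba: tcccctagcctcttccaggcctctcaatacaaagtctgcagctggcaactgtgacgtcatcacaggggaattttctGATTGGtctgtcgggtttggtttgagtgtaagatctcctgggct
RT1-Bb: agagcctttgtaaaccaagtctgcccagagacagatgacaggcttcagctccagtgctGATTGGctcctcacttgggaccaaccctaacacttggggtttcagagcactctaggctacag
RT1-Db1: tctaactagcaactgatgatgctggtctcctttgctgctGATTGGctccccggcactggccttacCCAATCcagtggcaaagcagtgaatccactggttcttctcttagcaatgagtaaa
These windows lie at chr20:4515295-4515414 (plus strand), chr20:4576937-4577056 (plus), chr20:4604119-4604238 (minus) and chr20:4560163-4560282 (minus). The first base of GATTGG was 50, 44, 62 and 81 bases before the start of RT1-Da, RT1-Ba, RT1-Bb and RT1-Db1, and RT1-Db1 held the letters also on the reverse strand at 55. Over 33469 rat promoters of 300 bases, 250 before and 50 after the start, 14.8% held GATTGG on either strand, and that of Cd74 did not. A match of letters describes the sequence and shows no binding.

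Cd74 stood at 157, 115 and 126 FPKM in M2, M3 and M4, against a lowest, median and highest of 28.6, 34.1 and 36.6 FPKM in the other 6 libraries. The groups did not overlap, and the lowest first-run value was over 3 times the highest of the others. Its log2 fold change was 1.96 ± 0.12 (adjusted p = 6.14e-05), a ratio of means of 3.99. RT1-Da, the class II DR alpha-like chain, stood at 35.4, 29.2 and 27.7 FPKM against 6.22, 8.22 and 8.70, with a log2 fold change of 1.86 ± 0.12 (adjusted p = 8.92e-05). RT1-Ba, a DQ alpha-like chain, stood at 15.3, 12.1 and 12.9 FPKM against 2.60, 3.31 and 3.86. Its partner RT1-Bb stood at 14.3, 9.74 and 9.42 FPKM against 2.24, 2.99 and 3.65. The lowest chain, RT1-Db1, stood at 4.04, 3.93 and 3.36 FPKM against 0.671, 0.830 and 1.16. All 5 genes were separated without overlap, as were 499 of the 509 called genes and 12.2% of all genes tested. The 3 first-run libraries lay close together. Between the second and the fourth runs, RT1-Ba, RT1-Da, RT1-Db1 and Cd74 differed by no more than 0.11 on the log2 scale. That value for RT1-Bb is not given here. The adjusted p of RT1-Ba, RT1-Bb and RT1-Db1 was 8.92e-05, 0.000891 and 0.000519. Reads of such related chains may be split between near-identical copies, so that the level of each chain is uncertain. These calls held in all 9 fits without 1 library and were lost in 1 alternative, the fit of all libraries together, where the adjusted p of RT1-Da was 0.0958 and of Cd74 0.0829. Over the 20 alternatives both ranged from 3.22e-05 to those values. The M16 columns stood at 162 and 112 FPKM for Cd74 and 38.4 and 28.7 for RT1-Da, inside or near the first-run range.

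Class I and peptide loading genes of the same list gave other values. B2m, the class I light chain, stood at 1159, 860.5 and 1031 FPKM against 966, 1062 and 1209, and Tap1, a peptide transporter, at 10.97, 7.78 and 8.34 against 7.96, 8.99 and 10.9, so that the groups overlapped for both. The immunoproteasome subunits Psmb8, Psmb9 and Psmb10 overlapped too, and none was called. Tapbp, the tapasin that loads class I, stood at 22.7, 22.2 and 20.9 FPKM against 14.4, 16.5 and 19.3, with a log2 fold change of 0.37 ± 0.10 and an adjusted p of 0.0620, just over the threshold.

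Macrophage genes were higher in the same libraries. Of 15 tested markers of monocytes and recruited macrophages, 10 rose and 0 fell, with a median log2 fold change of 0.71. Their summed FPKM was 252.5 to 393.1 in the first run, with the highest value in M3, and 164.5 to 180.0 in the other 6 libraries. Gpnmb, a glycoprotein of lipid-laden and phagocytic macrophages, stood at 25.4, 32.4 and 11.6 FPKM against 2.30, 2.75 and 3.51. Without overlap, its log2 fold change was 2.56 ± 0.26 (adjusted p = 0.00117), and it was called under all 20 alternatives. Lgals3, galectin-3, stood at 22.6, 23.4 and 13.1 FPKM against 6.61, 7.45 and 9.37 (1.21 ± 0.18, adjusted p = 0.00763). Cyba, a subunit of the phagocyte oxidase, stood at 16.2, 18.3 and 15.9 FPKM against 8.21, 8.86 and 10.7 (0.83 ± 0.10, adjusted p = 0.00266). Tyrobp, an adaptor of myeloid receptors, stood at 25.7, 36.4 and 24.5 FPKM against 15.4, 16.4 and 18.5 (0.74 ± 0.12, adjusted p = 0.0130). These 4 genes were still called without M3, and the last 3 were lost in the fit of all libraries together, with adjusted p of 0.203, 0.296 and 0.334, each the highest over its alternatives. The other 6 that rose, namely Lyz2, Cd68, Ly86, Fcer1g, Cybb and Aif1, changed by 0.43 to 1.10 on the log2 scale and missed the threshold without M3, at adjusted p of 0.0586 to 0.117. Lyz2 and Ly86 were also lost without M2, Cd68 without M9 or M10, Fcer1g without M9 or M22, Cybb without M4, M9, M10 or M22, and Aif1 without 6 of the other libraries. Without M3 the list thus held 4 risen members.

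Markers of resident Kupffer cells varied within the first run. Of 14 tested, 4 rose and 0 fell, with a median log2 fold change of 0.51 and summed FPKM of 437 to 832 against 396 to 481, where the M2 value of 437 lay inside the range of the others. Without M3 the median was 0.28 and 1 member was called. Marco, a scavenger receptor, stood at 10.6, 50.1 and 23.4 FPKM against 3.75, 4.69 and 6.81. It did not overlap, with a log2 fold change of 2.07 ± 0.38 (adjusted p = 0.0210), and 1.53 with an adjusted p of 0.0372 without M3. Against a fold of 1.2 its adjusted p was 0.0648. Cd5l, Csf1r and Folr2 rose by 0.72 ± 0.14, 0.74 ± 0.17 and 0.79 ± 0.19 but were lost without M3, with adjusted p of 0.0920, 0.116 and 0.162. Cd5l was also lost without M4 or M9, and Csf1r and Folr2 without 6 of the other libraries each. Clec4f, the lectin that defines rodent Kupffer cells, stood at 53.6, 112 and 105.4 FPKM against 66.2, 73.3 and 79.5, and Vsig4 at 15.3, 38.1 and 29.6 against 20.6, 22.4 and 25.97. In both, M2 lay below and M3 and M4 above all 6 other libraries. M2 held the highest class II values. It was low for Clec4f and Vsig4 but lay above all 6 other libraries for Marco and Gpnmb. The summed FPKM of recruited macrophage markers was 256.5 in M2, against at most 180.0 in those 6. The part of macrophage number in the class II values was not tested.

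Markers of other cell types gave few calls. No member was called among 3 neutrophil, 6 T and NK cell, 4 B and plasma cell, 18 endothelial and 3 platelet markers tested. Over all genes 4.46% were called, so that 0 calls among so few markers do not set these cell types apart. Of 15 neutrophil markers listed, 12 were not tested. The neutrophil sum was 5.65 to 39.4 FPKM in the first run and 3.14 to 4.28 in the others, without overlap. Most of it in M2 and M3 was Lcn2, also an acute phase gene, at 36.1 of 39.4 FPKM and 25.4 of 28.9 FPKM. In M4 Lcn2 was 2.42 of 5.65 FPKM. Fpr1 and Elane were at 0 in all 9 libraries. The part of neutrophils in the macrophage values was not tested. Of 2 erythroid markers tested, Ahsp, a chaperone of alpha globin, rose by 0.61 (adjusted p = 0.0363; 0.140 without M3), and was lost without 7 of the 9 libraries. The sum of both was 1.97 to 15.2 FPKM against 1.45 to 2.36, highest in M3. The B and plasma cell sum was 114 to 262 FPKM in the first run and 139.6 to 271 in the others, and the B cell genes Ms4a1 and Pax5 stayed under 1 FPKM in all 9 libraries. The T cell genes Cd3d, Cd3e and Cd3g also stayed under 1 FPKM in all 9. Epcam, an epithelial adhesion molecule of bile duct cells, stood at 30.8, 17 and 13 FPKM against 4.78, 6.08 and 8.56, without overlap. It rose by 1.44 ± 0.25 (adjusted p = 0.0161), and the adjusted p was 0.0534 without M3. It was the 1 called member of 6 bile duct markers tested, whose sum was 49.1 to 77.2 FPKM against 34.8 to 45.6, while Krt7, Sox9 and Cftr of that list stayed under 1 FPKM in all 9 libraries. Lcn2, listed for neutrophils and the acute phase, stood at 36.1, 25.4 and 2.42 FPKM against 1.55, 1.84 and 2.41, with an adjusted p of 0.0688. The M4 value lay just above the highest of the others.

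Circadian clock genes changed in opposite directions. Of 17 tested, 3 rose and 3 fell, with a median log2 fold change of 0.20. The clock runs as a loop in which Arntl (Bmal1) pairs with Clock or Npas2 to drive Per, Cry and Nr1d genes and the output factors Dbp and Tef, and Nr1d proteins repress Arntl, Npas2 and Nfil3 through ROR sites. All 3 genes that fell belong to the Arntl phase, and all 3 that rose belong to the opposite phase. Npas2 stood at 0.601, 0.689 and 0.951 FPKM against 4.50, 5.46 and 5.68. The groups were far apart, with a log2 fold change of -1.85 ± 0.10 and an adjusted p of 5.35e-05. Arntl stood at 4.48, 3.70 and 1.504 FPKM against 8.62, 13.1 and 19.7 (-1.84 ± 0.32, adjusted p = 0.0176). Without M3 its adjusted p was 0.0534. Nfil3, a repressor that counters Dbp, stood at 23.04, 18.3 and 14.6 FPKM against 23.6, 37.3 and 42.8 (-0.88 ± 0.21, adjusted p = 0.0466), so that the lowest comparison library nearly met M2. It was lost without 7 of the 9 libraries.

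Per3, a period gene, stood at 3.84, 3.74 and 5.23 FPKM against 0.303, 0.789 and 1.31, without overlap. Its log2 fold change was 1.58 ± 0.23 (adjusted p = 0.00753), and like Npas2 it was called under all 20 alternatives. Dbp, the D-box output factor, stood at 58.1, 39.7 and 105.5 FPKM against 2.57, 4.95 and 27.4, where the highest comparison value came from M10. Its log2 fold change was 3.12 ± 0.67 (adjusted p = 0.0350), but the call was lost without any of M2, M3, M4, M8, M9, M21 or M22, with adjusted p up to 0.0829. Tef stood at 15.7, 13.1 and 22.3 FPKM against 7.74, 8.51 and 13.4, an overlap of M3 with the highest comparison library (0.80 ± 0.19, adjusted p = 0.0431), and was lost without any library except M10. Without M3 only Npas2 and Per3 of the list were called. Nr1d1 stood at 21.2, 30.6 and 47.9 FPKM but ranged from 0.381 to 40.6 among the other 6, with a median of 9.35 and an adjusted p of 0.304. Per1, Per2, Cry1 and Cry2 overlapped and were not called. Both M16 columns lay with the second and the fourth runs for Arntl, at 13.7 and 16.7 FPKM, for Dbp, at 2.46 and 3.83, and near them for Per3, at 0.557 and 0.264. For Npas2, at 3.68 and 2.62 FPKM, they lay between the groups. The labels give no time of day at which a liver was taken.

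The promoter of Arntl, named Bmal1 in RefSeq, is shown because ROR sites are its known control elements; capitals mark AGGTCA, the ROR core, in the 120 bases before the start at chr1:176766208-176766327 of GRCr8, plus strand.
Arntl: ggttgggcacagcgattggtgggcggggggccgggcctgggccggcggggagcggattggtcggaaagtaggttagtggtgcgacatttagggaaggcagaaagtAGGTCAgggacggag
The first base of the match lay 15 bases before the start. Of 33469 rat promoters of 300 bases, a longer window than the one shown, 16.2% held AGGTCA on either strand. The E-box CACGTG, which Arntl pairs bind, was found in the 300-base promoter of Tef, 198 bases before its start, and in 6.42% of all promoters. In the promoters of Npas2, Per3, Dbp and Nfil3 neither motif was found in this window.

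**Figure D2:**
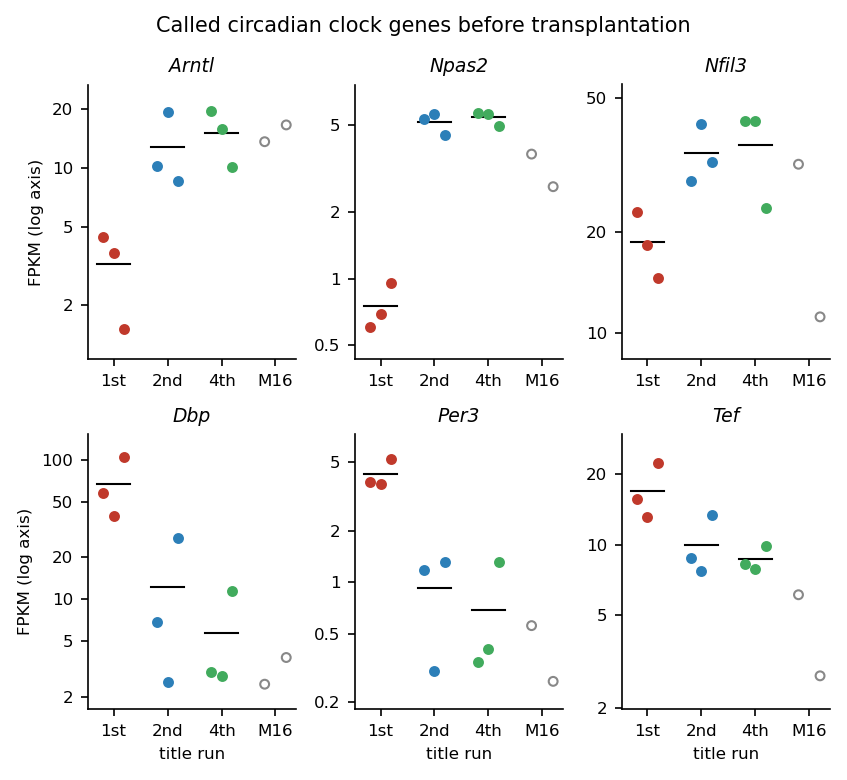
FPKM of the 6 called clock genes in each pre-transplant library on log axes, by title run, with bars at run means and open grey points for both columns headed M16. Arntl, Npas2 and Nfil3 lie lower and Dbp, Per3 and Tef higher in the first run, and the M16 points lie with the second and the fourth runs for Arntl, Dbp and Per3.

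Part of the growth hormone axis fell in the first run, including the receptor Ghr, Stat5b and Igf1. Growth hormone acts through its receptor Ghr and the factor Stat5b to induce Igf1 in hepatocytes. Of 23 tested genes of this axis and of sex-biased liver expression, 5 fell and 1 rose, with a median log2 fold change of -0.58, and without M3 3 fell and 0 rose. Igf1, the hormone itself, stood at 252, 234 and 286 FPKM against 400.2, 469 and 579.8. Without overlap, it fell by 0.87 ± 0.13 on the log2 scale (adjusted p = 0.00838). Stat5b stood at 9.41, 13.2 and 12.1 FPKM against 16.9, 19.1 and 22.7 (-0.70 ± 0.12, adjusted p = 0.0130). Ghr stood at 181, 110.3 and 165 FPKM against 232, 250.1 and 286 (-0.76 ± 0.15, adjusted p = 0.0224), and at an adjusted p of 0.0546 without M3. All 3 were lost when tested against a fold of 1.2, and Igf1 and Ghr also in the fit of all libraries together, with adjusted p up to 0.207, 0.129 and 0.283 for Igf1, Stat5b and Ghr.

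Stac3, an adaptor best known from muscle excitation and a growth hormone-responsive gene in liver, fell furthest of all named genes. It stood at 22.5, 0.207 and 4.62 FPKM in M2, M3 and M4, against 84.05, 157 and 265, and the groups lay far apart (-4.80 ± 0.78, adjusted p = 0.0151; -3.71 and 0.0324 without M3). In the fit of all libraries together its adjusted p was 0.0716. Ca3, an abundant male-biased carbonic anhydrase, stood at 1837, 305 and 852 FPKM against 2054, 3056 and 3499 (-1.90 ± 0.45, adjusted p = 0.0467). Its call was lost without any single library except M2, with adjusted p up to 0.0960. Igfbp2, an IGF-binding protein that insulin and growth hormone hold down, stood at 7.07, 147 and 40.0 FPKM against 0.511, 1.35 and 2.79. This was the greatest rise, 3.86 ± 0.74 (adjusted p = 0.0237), and the ratio of means was 39.1; without M3 it was 2.85 with an adjusted p of 0.0575, and the call was also lost without M4 or M9. Cyp2c11, the male-specific P450, stood at 573, 18.4 and 519 FPKM against 534, 689 and 939.6 and was not called (adjusted p = 0.257). M3 lay far below the comparison libraries and M4 just below them.

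Few fatty acid synthesis genes were called. Of 20 tested, 2 fell and 0 rose, with a median log2 fold change of -0.37. Without M3 none was called and the median was -0.19. Scd, the desaturase that makes oleate, stood at 73.5, 1.66 and 18.4 FPKM against 125, 408 and 1174, without overlap (-4.58 ± 1.02, adjusted p = 0.0392). Its call was lost without any single library except M2 and M23, with adjusted p up to 0.117. Acaca, acetyl-CoA carboxylase, stood at 8.25, 7.23 and 9.62 FPKM against 14.3, 15.8 and 32.7 (-1.08 ± 0.24, adjusted p = 0.0363; 0.136 without M3), and was also lost without M2, M4, M8, M9 or M23. Fasn stood at 43.4, 17.2 and 24.6 FPKM against 29.9, 55.9 and 162 and overlapped (adjusted p = 0.238). Of 24 cholesterol synthesis genes 0 were called, with a median of 0.18, or 0.35 without M3. Over all genes 4.46% were called, so that 0 of 24 does not set this list apart. Msmo1, a sterol oxidase, stood at 192, 135 and 143 FPKM against 65.0, 78.4 and 153 (adjusted p = 0.124).

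Lipid droplet genes moved both ways. Of 20 tested, 4 rose and 2 fell, with a median log2 fold change of -0.13, and without M3 only Plin3 was called. Plin3, a droplet coat protein, stood at 48.7, 34.98 and 35.1 FPKM against 19.2, 23.2 and 24.4 (0.78 ± 0.12, adjusted p = 0.0105), and was lost in the fit of all libraries together and against a fold of 1.2, at adjusted p up to 0.0869. Fabp4, a lipid chaperone of adipocytes and macrophages, stood at 8.52, 15.6 and 2.79 FPKM against 0.312, 0.816 and 1.81 (2.18 ± 0.41, adjusted p = 0.0222). Cidea, a droplet fusion protein, stood at 4.92, 12.8 and 6.27 FPKM against 1.28, 1.66 and 4.05 (1.495 ± 0.31, adjusted p = 0.0278). Fabp4 and Cidea were highest in M3 and were lost without it, at adjusted p of 0.0690 and 0.0935; Fabp4 was also lost without M2 or M9, and Cidea without M8, M9, M21 or M23. G0s2, an inhibitor of the lipase that empties droplets, stood at 197, 46.3 and 115 FPKM against 267, 407 and 546 (-1.93 ± 0.41, adjusted p = 0.0331; 0.0784 without M3), and was also lost without M4, M9, M21, M22 or M23. Hsd17b13, a hepatocyte droplet enzyme, stood at 291, 257 and 237 FPKM against 350.5, 423 and 488 (-0.67 ± 0.13, adjusted p = 0.0212; 0.0785 without M3). Plin2, the main coat protein of hepatocyte droplets, stood at 80.1, 46.8 and 102.7 FPKM against 95.9, 151 and 210.1 and was not called (adjusted p = 0.0755).

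Fatty acid oxidation genes leaned upward. PPARA is the fatty acid sensor that induces them during fasting. Of 34 tested, 7 rose and 1 fell, with a median log2 fold change of 0.46, and without M3 only Acot1 was called. Acot1, a fasting-induced thioesterase, stood at 1.35, 1.05 and 1.14 FPKM against 0, 0.0478 and 0.129 (1.05 ± 0.13, adjusted p = 0.00481). It passed the filter of 1 FPKM in 3 libraries only through the first run, so that its groups could not overlap. Vnn1, a pantetheinase, stood at 23.2, 23.7 and 38.4 FPKM against 3.62, 5.77 and 14.0 (1.94 ± 0.37, adjusted p = 0.0224). Cyp4a1, a fatty acid hydroxylase, stood at 101.9, 165 and 109 FPKM against 26.8, 49.8 and 62.9 (1.42 ± 0.29, adjusted p = 0.0277). Eci1, an enoyl-CoA isomerase, stood at 251, 238 and 160.0 FPKM against 70.0, 101.4 and 139.8 (1.06 ± 0.22, adjusted p = 0.0279). None of these 4 genes overlapped, and the last 3 had adjusted p of 0.0712, 0.114 and 0.114 without M3. Vnn1 was also lost without M4 or M9, Cyp4a1 without M9, and Eci1 without M2, M9, M10 or M23. Ppara itself, at 12.97, 19.5 and 36.97 FPKM against 14.8, 22.9 and 32.9, overlapped. Of 23 gluconeogenesis and fasting genes, 1 rose and 1 fell, where 4.46% of all genes were called. They were the coactivator Ppargc1a (0.62 ± 0.15, adjusted p = 0.0487) and the insulin-restrained factor Foxo1 (-0.60 ± 0.15, adjusted p = 0.0467). Both were lost without each of 8 of the 9 libraries, with adjusted p up to 0.176 and 0.161.

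Among 21 cytochromes P450 and their partner, 3 rose and 1 fell, with a median of 0.00, or 0.17 without M3. Por, the reductase that feeds electrons to microsomal P450s, stood at 80.2, 56.1 and 114 FPKM against 19.04, 29.5 and 38.2. It did not overlap (1.45 ± 0.26, adjusted p = 0.0176) and was called without each library in turn, but not against a fold of 1.2 (adjusted p = 0.0653). Cyp2c6v1 and Cyp2b1 rose by 1.02 ± 0.23 and 1.13 ± 0.26, with adjusted p of 0.0390 and 0.0384, and each was lost without 7 of the 9 libraries, at up to 0.132 and 0.107. Cyp2f4 stood at 22.2, 21.2 and 22.4 FPKM against 29.1, 36.6 and 39.1 (-0.65 ± 0.11, adjusted p = 0.0118; 0.0534 without M3). Gsta3, a glutathione transferase and the 1 called gene of 19 conjugating enzymes and carboxylesterases, stood at 16.6, 72.1 and 12.3 FPKM against 1.30, 1.64 and 9.48 (2.90 ± 0.62, adjusted p = 0.0351). It was lost without 7 of the 9 libraries, at adjusted p up to 0.104. Near-identical copies in these families may share reads. Of 19 bile acid genes 0 were called. With 4.46% called over all genes, neither 0 of 19 nor the 1 of 19 conjugating enzymes and carboxylesterases sets its list apart. Cyp7a1, the rate-limiting enzyme of bile acid synthesis, stood at 118, 75.1 and 121 FPKM against 2.18, 14.1 and 62.5. All first-run values lay above the others, with a log2 fold change of 2.93 ± 0.78 and an adjusted p of 0.0692.

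Stress genes gave some of the firmer single results. Hspb1, a small heat shock protein (chr12:23839399-23841049), stood at 28.5, 42.4 and 38.1 FPKM against 5.46, 6.49 and 10.1. It did not overlap, rose by 2.24 ± 0.18 (adjusted p = 0.000227) and was called under all 20 alternatives. Of 16 heat shock genes tested, Hspb1 and Hspb8 rose and 0 fell. Gpx2, a glutathione peroxidase (chr6:99839960-99843245), stood at 9.65, 14.99 and 5.19 FPKM against 0.130, 0.398 and 0.999 (2.85 ± 0.28, adjusted p = 0.00103). It kept its call under all 19 alternatives that could be run for it, and Gpx2 was a member of no list. The alternative that could not be run asked for 1 FPKM in 6 libraries. Gpx2 reached that level only in the first run and was tested through it alone, so that its groups could not overlap. The metallothioneins Mt2A and Mt1, which bind zinc and copper, stood at 191, 771 and 774 and at 92.7, 234 and 330.4 FPKM against medians of 41.6 and 31.2. M2 lay inside the range of the others for both, since M23 reached 197 and 96.8 FPKM. They rose by 3.20 ± 0.69 and 2.49 ± 0.55 (adjusted p = 0.0366 and 0.0384) and were lost without M3, both at 0.136, and without 6 of the other libraries each. Hspb8 was lost without 7 of the 9 libraries, at adjusted p up to 0.124. With Spink1, lost likewise without 7 libraries at up to 0.102, they were the 3 risen of 26 acute phase genes, of which 0 fell, and the median was -0.04, or -0.11 without M3. Of 20 NRF2 and oxidative stress genes only these metallothioneins rose. Slc30a3, a zinc transporter, stood at 5.96, 6.17 and 13.5 FPKM against 0.515, 1.05 and 3.88 (1.99 ± 0.37, adjusted p = 0.0210; 0.0570 without M3).

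Of 21 immediate early genes, Klf6 alone was called, a count near the 4.46% called over all genes. Klf6 stood at 5.66, 7.56 and 6.05 FPKM against 1.83, 2.97 and 3.51 (0.99 ± 0.17, adjusted p = 0.0127, and 0.0586 without M3). Of 12 hypoxia genes, Aldoa and Ankrd37 rose and Pdk1 fell. Aldoa, the aldolase isozyme of muscle and non-hepatocyte cells, stood at 41.3, 48.0 and 37.8 FPKM against 23.2, 26.6 and 28.6 (0.66 ± 0.10, adjusted p = 0.00773). It was lost in the fit of all libraries together and against a fold of 1.2, at adjusted p up to 0.296. Pdk1, the kinase that restrains pyruvate dehydrogenase, stood at 19.9, 15.6 and 21.9 FPKM against 26.8, 30.1 and 44.4 (-0.71 ± 0.16, adjusted p = 0.0349; 0.136 without M3), and was also lost without M2, M8, M9 or M22. Ankrd37 rose by 0.91 (adjusted p = 0.0430) and was lost without each library except M3, at up to 0.0996.

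Interferon-stimulated genes rose in part. Of 26 tested, 5 rose and 1 fell, with a median log2 fold change of 0.36, and without M3 only Cxcl10 was called. Cxcl10, a chemokine for activated T cells, stood at 5.06, 3.84 and 2.82 FPKM against 1.04, 1.34 and 1.65 (1.04 ± 0.15, adjusted p = 0.00730). This call was lost in the fit of all libraries together, at an adjusted p of 0.583. Isg20, Irf7, Mx1 and Gbp2 rose by 1.21 ± 0.23, 0.56 ± 0.11, 0.58 ± 0.12 and 0.73 ± 0.16, while the RNA sensor Ddx58 fell by 0.61 ± 0.13. Besides M3, Isg20 was lost without M2, Irf7 without M2 or M4, Mx1 without M9 or M10, Ddx58 without M2, M9 or M10, and Gbp2 without 5 other libraries. Of 13 cytokines, chemokines and adhesion molecules, Cxcl16 and Tgfb1 rose, by 0.63 ± 0.11 and 0.68 ± 0.13 (adjusted p = 0.0193 and 0.0199; 0.0788 and 0.0634 without M3).

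Several of the greatest falls belonged to no metabolic list. Lox, the enzyme that cross-links collagen (chr18:47500330-47577819), stood at 0.534, 0.293 and 1.33 FPKM against 13.1, 18.2 and 27.3. The ratio of the means was 26.8 in favour of the other 6 libraries, with a log2 fold change of -3.56 ± 0.25 (adjusted p = 0.000116) and a call under all 20 alternatives. It was the 1 called fall among 24 matrix and stellate cell genes, where Tgfb1 was the 1 rise and the median was 0.35. The collagens of that list were not called. Ptk6, a cytoplasmic tyrosine kinase of epithelia (chr3:176698305-176706896), stood at 0.399, 0.508 and 1.46 FPKM against 7.73, 8.56 and 11.2 (-2.52 ± 0.18, adjusted p = 0.000110). St8sia1, the sialyltransferase that makes ganglioside GD3 (chr4:177065168-177196180), stood at 0.676, 0.531 and 0.418 FPKM against 4.05, 5.85 and 8.98 (-2.21 ± 0.21, adjusted p = 0.000927). Inhba, the activin A subunit (chr17:51898217-51912496), stood at 7.39, 7.59 and 7.48 FPKM against 16.01, 23.7 and 39.2 (-1.59 ± 0.22, adjusted p = 0.00711). The gene named 5330417C22Rik in the table (chr2:211246068-211322719) stood at 2.78, 2.17 and 2.99 FPKM against 10.1, 12.6 and 16.1 (-1.90 ± 0.15, adjusted p = 0.000227). These 4 genes were called under all 20 alternatives. Their lack of overlap was a condition of being named, as for every gene named for the greatest rise or fall. St8sia1 stayed under 1 FPKM in the first run and was tested only through the other 6 libraries. Lhx8, a homeobox factor, stood at 0.313, 0.474 and 1.52 FPKM against 1.85, 5.55 and 7.44 (-1.80 ± 0.33, adjusted p = 0.0199), and was lost without M2 or M3, at adjusted p up to 0.0830.

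On the rising side, Pla1a, a phospholipase that releases lysophosphatidylserine (chr11:64882288-64919579), stood at 5.37, 21.99 and 8.16 FPKM against 0.803, 0.991 and 1.65 (2.42 ± 0.33, adjusted p = 0.00711). Spsb4, a SOCS box protein (chr8:104840940-104912959), stood at 5.93, 18.5 and 3.29 FPKM against 0.0236, 0.246 and 0.450 (2.77 ± 0.38, adjusted p = 0.00711). Both peaked in M3 and were called under every alternative that could be run, at 1.89 and 2.16 without M3. Spsb4 reached 1 FPKM only in the first run and was tested through it alone, so that its groups could not overlap. Fabp2, the intestinal fatty acid binding protein, stood at 13.6, 9.78 and 6.98 FPKM against 1.91, 2.89 and 3.35 (1.56 ± 0.20, adjusted p = 0.00490). Of the gut, pancreas, adipocyte and mesothelial markers it was the 1 called gene of 4 tested, and the pancreatic genes Prss1 and Prss2 and the gut gene Alpi were at 0 in all 9 libraries. Among 20 hepatocyte secreted proteins, 3 fell and 0 rose, with a median of -0.27. Gc, the vitamin D binding protein, stood at 5494, 5262 and 5094 FPKM against 7407, 7853 and 8582 (-0.58 ± 0.10, adjusted p = 0.0145). Its call was lost under quantile normalization, in the fit of all libraries together and against a fold of 1.2, at adjusted p up to 0.436. Apoc3, an inhibitor of triglyceride clearance, stood at 4251, 2711 and 4879 FPKM against 6459, 8129.6 and 9053 (-1.04 ± 0.19, adjusted p = 0.0195; 0.0534 without M3).

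**Figure D3:**
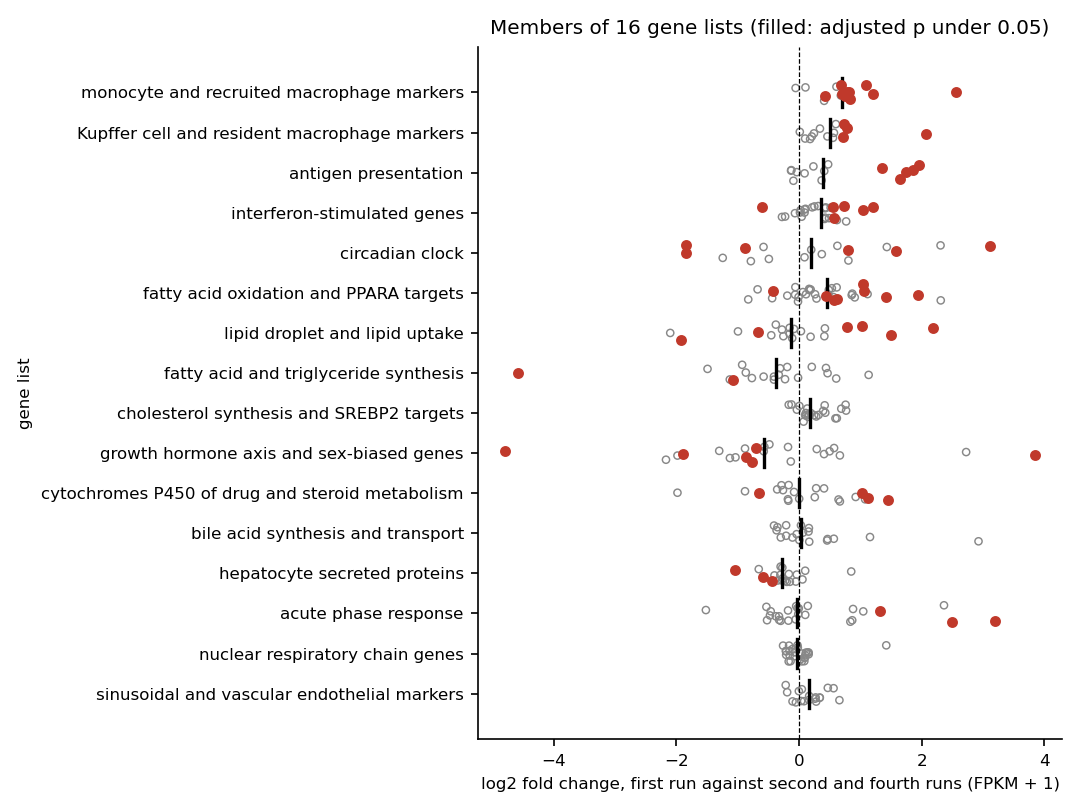
Log2 fold changes of the first run against the second and the fourth runs for each tested member of 16 gene lists, filled red where called at an adjusted p under 0.05. Black bars mark list medians and the dashed line the median of all genes, -0.01; of the lists plotted, monocyte and recruited macrophage markers have the highest median, 0.71, and the growth hormone axis the lowest, -0.58.

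No member was called in lists of nuclear respiratory chain genes (27 tested, median -0.03), mitochondrially encoded genes (13), the urea cycle and amino acid breakdown (23), the unfolded protein response (23) and the cell cycle (16). Over all genes 4.46% were called, so that no call in a list of this size is near that share. The respiratory subunit Ndufv2, for example, stood at 135, 127 and 120.2 FPKM against 132, 149 and 166. Asl, a urea cycle enzyme, stood at 209, 254 and 185 FPKM against 102.9, 159.9 and 211. Both overlapped.

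Split by run, the first run differed from the second in 161 genes (1.41%) and from the fourth in 0.92% of genes, comparisons that share the first-run libraries. Between the second and the fourth runs 0 genes (0.0%) were called by limma, while 278 had an unadjusted p under 0.05. All 509 called genes kept their direction against either run alone, which the choice of the pooled contrast favours. Lox changed by -3.75 against the second and -3.37 against the fourth run, Npas2 by -1.82 and -1.88, Cd74 by 1.94 and 1.98, and Hspb1 by 2.37 and 2.10, so that both runs gave like sizes. Igfbp2, Dbp and Scd missed the threshold in each of these smaller comparisons.

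After transplantation, the first run could be followed in M6 and M7 only, against the 6 libraries of the second and the fourth post-transplant runs. By limma 1 gene was called there (0.00876%), the mitochondrial fission factor Mff, while 289 had an unadjusted p under 0.05. None of the 509 genes was called after transplantation. Of them, 286 (56.2%) had the same sign, as had 52.8% of all genes tested, and their median SE was 0.35 after against 0.14 before. Cd74 stood at 527 and 128 FPKM in M6 and M7 against a range of 62.3 to 565, and Gpnmb at 133 and 47.7 against 11.2 to 363, so that both were spread too widely to separate. Lox, at 10.3 and 4.15 FPKM, lay inside the other range of 0.163 to 15.1. The difference of the run contrast after and before transplantation was called for 9 genes (0.0789%), with 916 at an unadjusted p under 0.05. Among them, Ptk6 was at most 0.548 FPKM in all of these post-transplant libraries, where the contrast was -0.24 ± 0.16, and its difference had an adjusted p of 0.00135. So near the floor little contrast was possible, and Ptk6 was named for its fall before transplantation. Gpx2 stood at 11.3 and 9.57 FPKM after transplantation against 9.95 to 39.3, a contrast of -0.91 ± 0.44, opposite in sign to that before.

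**Figure D4:**
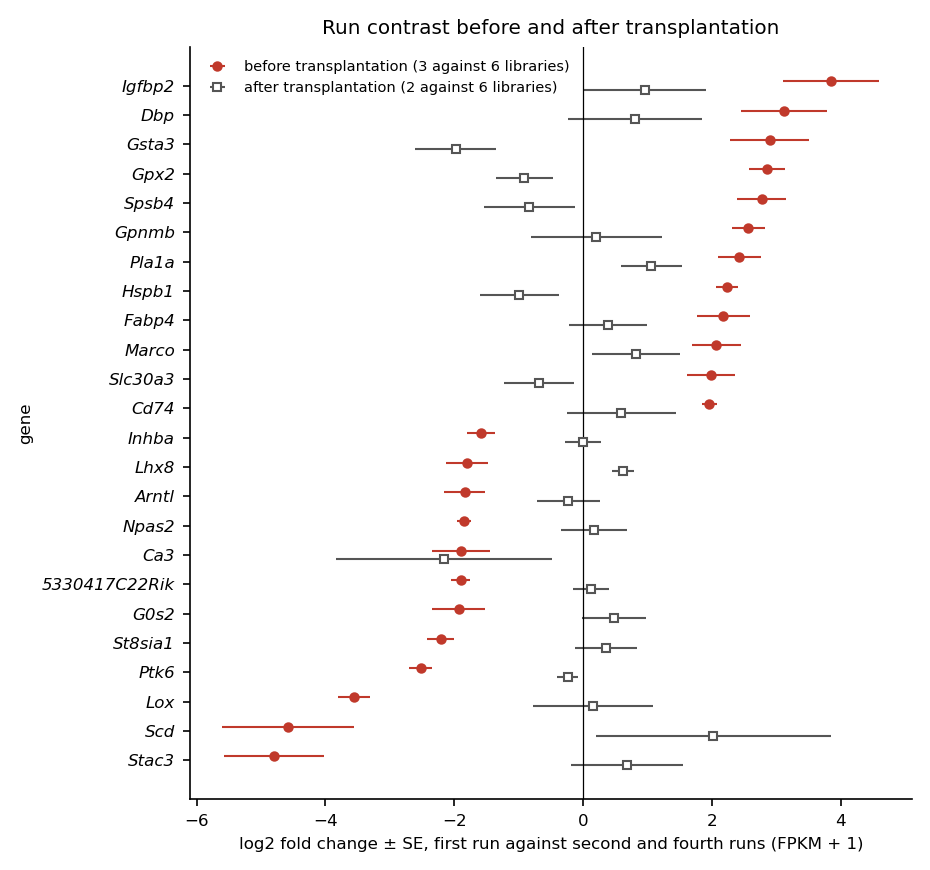
Log2 fold change ± SE of the first run against the second and the fourth runs for the 24 genes of greatest rise or fall, before transplantation (filled circles, 3 against 6 libraries) and after (open squares, 2 against 6). The genes were chosen for a large contrast before transplantation, a choice that by itself favours smaller values after it. After transplantation most values lie nearer 0, with Ca3 an exception. The error bars are wider than before, except for Ptk6 and Lhx8.

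The 2 columns headed M16 did not lie with 1 group throughout. For 215 of the 509 called genes both columns lay on the first-run side of the midpoint between the group means, and for 70 neither did. Lox, at 0.613 and 0.678 FPKM, and the class II genes lay with the first run in both columns. Ptk6 stood at 6.67 and 0.585 FPKM and St8sia1 at 7.14 and 1.19, so that 1 column lay near each group. Summed hemoglobin was 192 and 0.450 FPKM in these columns, below all 9 libraries tested.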

How the data were processed

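Polyadenylated RNA of rat livers was read as a single table with 1 row per gene, whose values the authors deposited as FPKM. The unit was taken from the values: low values are whole multiples of 1 read per gene length, and 100.0% of the recovered counts were whole within 0.02 reads up to 5000 reads. Per the submitters' processing notes, HISAT2 2.0.5 was among the tools; a rat build (Rnor_6.0) and a mouse build (mm10) are listed without a role. How reads were counted, on which annotation and how FPKM were computed is not given in the sources used here; coordinates are printed as the deposited table gives them, except promoters, which are RefSeq's (GRCr8).

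Samples were grouped by title. Of 32 value columns 30 were used: 2 headed alike (M5) cannot be tied to a sample, which left M6 and M7 as the first post-transplant run. A gene was tested where 3 or more of the 9 libraries reached 1 FPKM, on log2(FPKM + 1) with limma 3.58.1 (R 4.3.3, trend and robust), with 1 mean per group and Benjamini-Hochberg adjustment over 11413 genes, 98 of which share a symbol with another. Some named genes passed this filter only through the group where they are high. These were Acot1, Gpx2, Spsb4 and Ppargc1a, through the first run, and Npas2 and St8sia1, through the other 6 libraries. Library measures were compared by two-sided exact permutation over 84 assignments. The steps were tested on simulated data, in which all 9 libraries had the same spread, taken from the second run. Libraries of the first run were further apart than those of the second, so the simulation does not give the error rate in these data. Alternatives were 9 fits that left out 1 library and 11 others, among them another pseudocount, no filter, other scalings, all libraries in 1 fit, voom on recovered reads and a test against a fold of 1.2.

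The text names the 12 greatest rises and 12 greatest falls among called genes with a symbol of their own, a mean of at least 1 FPKM and no overlap, and up to 4 called members of each of 36 gene lists, 12 of them marker lists, by lowest adjusted p. Where no member was called, up to 2 are named for their values. Further list members are named for their role and were chosen after their values were seen. Members and lists were chosen with earlier results of these data known. FPKM hold no error of their own, so the SE and p-values rest on the spread among libraries. Of the fits, only the voom alternative used recovered reads.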

Additional observations from a re-analysis of the deposited data

Results flagged for a closer look

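Among the 6 comparison libraries, 1 library stood far from the other 5 for several genes. M10 held 27.4 FPKM of Dbp. M22 held 9.48 FPKM of Gsta3. M23 held 3.88 FPKM of Slc30a3, 197 FPKM of Mt2A and 96.8 FPKM of Mt1. M21 held 62.5 FPKM of Cyp7a1 and 67.3 FPKM of Hspb8. M10 also held 44.4 FPKM of Pdk1. The summed endothelial markers were highest in M23, at 179 FPKM. By chance about 1 in 20 groups is picked out in this way.

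The contrast between the first run and the other runs differed after and before transplantation for 4 of the named genes, by limma's test of that difference. Gpx2 gave -3.76 (adjusted p = 0.0108), Ptk6 2.28 (adjusted p = 0.00135), Lhx8 2.42 (adjusted p = 0.0315) and 5330417C22Rik 2.02 (adjusted p = 0.0204) on the log2 scale, as the contrast after minus that before. All 4 were named for a large contrast before transplantation, which favours such a difference. In the post-transplant libraries tested, Ptk6, Lhx8 and 5330417C22Rik reached at most 0.548, 0.902 and 1.16 FPKM. At levels so near the floor this scale leaves little room for a contrast.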

How the results depend on the processing

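Called genes numbered 509, against 117 with all libraries in 1 fit (51 higher, 66 lower), 247 with array weights (129 and 118) and 62 when tested against a fold of 1.2 (40 and 22), and without a filter the lower genes numbered 139. Leaving out 1 library gave 143 to 639 called genes, 81 to 303 higher and 62 to 336 lower. Without M3 143, without M9 245, without M10 298 and without M22 316 were called. First against second run, no filter gave 58 and leaving out 1 library 16 to 193; first against the fourth run, 32 and 16 to 121. After transplantation a pseudocount of 0.1 or quantile normalization gave 0, no filter 11, and leaving out 1 library 0 to 1. For the difference after and before transplantation, a pseudocount of 0.1 gave 2 and leaving out 1 library 2 to 32; these alternatives were chosen after seeing the data. List members called numbered 77, against 44 with no filter, 21 with all libraries in 1 fit, 43 with array weights, 16 against a fold of 1.2 and 26 to 86 when 1 library was left out. The causes were not tested, beyond fewer samples or a stricter hypothesis. Of the 71 named called genes, 14 kept their call in all alternatives and 39 lost it without M3, and 0 changed direction. No paired analysis was possible because the labels give the groups no shared replicate numbers.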
